A study of Mus musculus with 6 samples.

Results

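The keratins and the desmosome proteins hold epithelial cells together, and the proteins of the cornified envelope are crosslinked under the membrane of squamous cells. A list of 42 genes of these structures and of squamous differentiation was followed in mouse KP cells. They were measured before and after induction of a hairpin RNA against Npm1, the gene of the nucleolar protein nucleophosmin. The genes were taken by symbol: 15 keratins, 4 desmosomal cadherins, 6 plaque and associated names, 9 structural proteins of the cornified envelope, 2 transglutaminases and 6 squamous regulators and surface genes. Of the 42 names 41 matched 1 of the 48526 gene identifiers, and the other name, Perp1, matched no gene. Of the 41 genes 28 had enough counts to be tested, 12 had counts too low to be tested, and 1, Sprr2a1, had 0 counts in every library.

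Total RNA of 6 cultures was sequenced, 3 without and 3 with 100 ng/ml doxycycline. All 6 came from KP cells made into stable lines with a pLKO.1 Tet-on vector and selected with 2 µg/ml puromycin, and each line carried 1 of 3 hairpins against Npm1. The lines are called line 3, line 4 and line 5 after the hairpins. The labels name the cells KP and give neither the tissue they came from nor whether a line is a clone. Each line gave 1 library per condition, so the p-values set a difference against the spread between lines with different hairpins, and nothing shows how separate cultures of 1 line would differ. Cells without a hairpin were not among those given doxycycline, so the drug and the knockdown cannot be told apart.

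Keratins are the intermediate filament proteins of epithelia. A filament needs an acidic type I partner, such as KRT18, KRT19 or KRT20, and a basic type II partner, such as KRT7 or KRT8. Single-layered epithelia make mainly KRT8 and KRT18 with KRT7, KRT19 and KRT20, while the basal layer of stratified epithelia makes KRT5 with KRT14, and wounded or activated layers make KRT6, KRT16 and KRT17. Filaments are anchored at desmosomes, where desmoglein and desmocollin cadherins bridge the cells and plakoglobin, plakophilins and desmoplakin tie the cadherins to keratin. In the last stage of squamous differentiation transglutaminases crosslink involucrin, loricrin and small proline-rich proteins into the cornified envelope under the cell membrane.

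The libraries held 24391198 to 27341036 counts in genes, so that 3 counts, the upper limit that a count of 0 allows, correspond to 0.110 to 0.123 counts per 1000000 counts in genes (CPM). Npm1 was at 2000, 1850 and 1923 CPM without doxycycline in lines 3, 4 and 5 and at 67.7, 244 and 399 CPM with it, which left 3.39%, 13.2% and 20.8% of the untreated level. The treated library of line 3 stood apart: with all 6 libraries 332 of 14531 tested genes differed in edgeR's quasi-likelihood test at an adjusted p under 0.05, and without that library 1551 did, which is 10.4% of 14968 (5.79% lower). For members called with or without that library the adjusted p is given both ways, and most other members are given over all 6 libraries. Markers of epithelial identity were present in the cells, with Epcam, a surface protein of epithelial cells, at 47.6 ± 2.23 CPM without doxycycline (SD, n = 3). Markers of immune cells moved with doxycycline. Of 18 tested macrophage markers 13 rose, and the summed level of the 20 listed was 416 to 480 CPM without and 371 to 543 CPM with doxycycline. Mrc1, which was not called, held 348 to 413 CPM of the untreated and 160 to 380 CPM of the treated sum, and the 19 others summed to 66.2 to 68.0 CPM without and 163 to 312 CPM with doxycycline. Of 17 tested T and NK lymphocyte markers 14 fell, and the sum of the 20 listed was 26.7 to 37.8 CPM without and 5.28 to 8.23 CPM with it, with Cd6 at 0 counts in all 3 treated libraries. Of 2 tested B lymphocyte markers 1 fell, Ighm, from between 1.61 and 5.09 CPM to at most 0.198 CPM. The sum of the 8 listed was 2.53 to 5.68 CPM without and 0.686 to 1.11 CPM with doxycycline, and that of the 7 without Ighm was 0.587 to 1.08 and 0.503 to 1.11 CPM. Of 3 tested fibroblast markers 1 fell, Thy1, which T lymphocytes also express, and the sum of the 10 listed was 6.64 to 7.81 CPM without and 1.91 to 6.68 CPM with it. The part of these cells in the results that follow was not tested. In RNA of whole cultures, fewer cells of a type and less RNA per cell cannot be told apart.

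Among the 28 tested genes 2 fell with doxycycline and none rose: Ivl, the gene of involucrin, and S100a14, which encodes a small calcium-binding protein of epithelia. The share of all tested genes called was 2.28%, and 1.32% were called lower. The 26 others did not pass edgeR's test, and 6 of the 28 had an unadjusted p under 0.05 against 16.3% of all genes tested. DESeq2 called 3 of the list (Ivl, S100a14 and Krt20) and 2.61% of 27007 genes. These 27007 include genes with low counts that edgeR's filter left out, so that share is not comparable with edgeR's. The fit with the line as a replicate block called Ivl and S100a14 (1.67% of all genes called). A filter at a mean of 1 CPM left S100a14 alone (1.35% of 12634 genes called). Without a filter on low counts the same 3 as in DESeq2 were called (3.90% of 27007 genes). Without the treated library of line 3 these 3 and Krt5 were called, in a fit that called 10.4% of 14968 genes. The fold change lay below 0 in 26 of the 28, beside 49.6% of all genes, and the median log2 fold change was -0.31, beside 0.00 over all genes. The 3 treated libraries lay below all 3 untreated ones for 7 genes (Krt15, Krt19, Krt20, Pkp1, Ivl, Ly6d and S100a14), beside 11.2% of all genes, and above them for none. A gene entered the test through its counts, so these figures describe the 28 measured genes and not the list of 42.

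**Figure D1:**
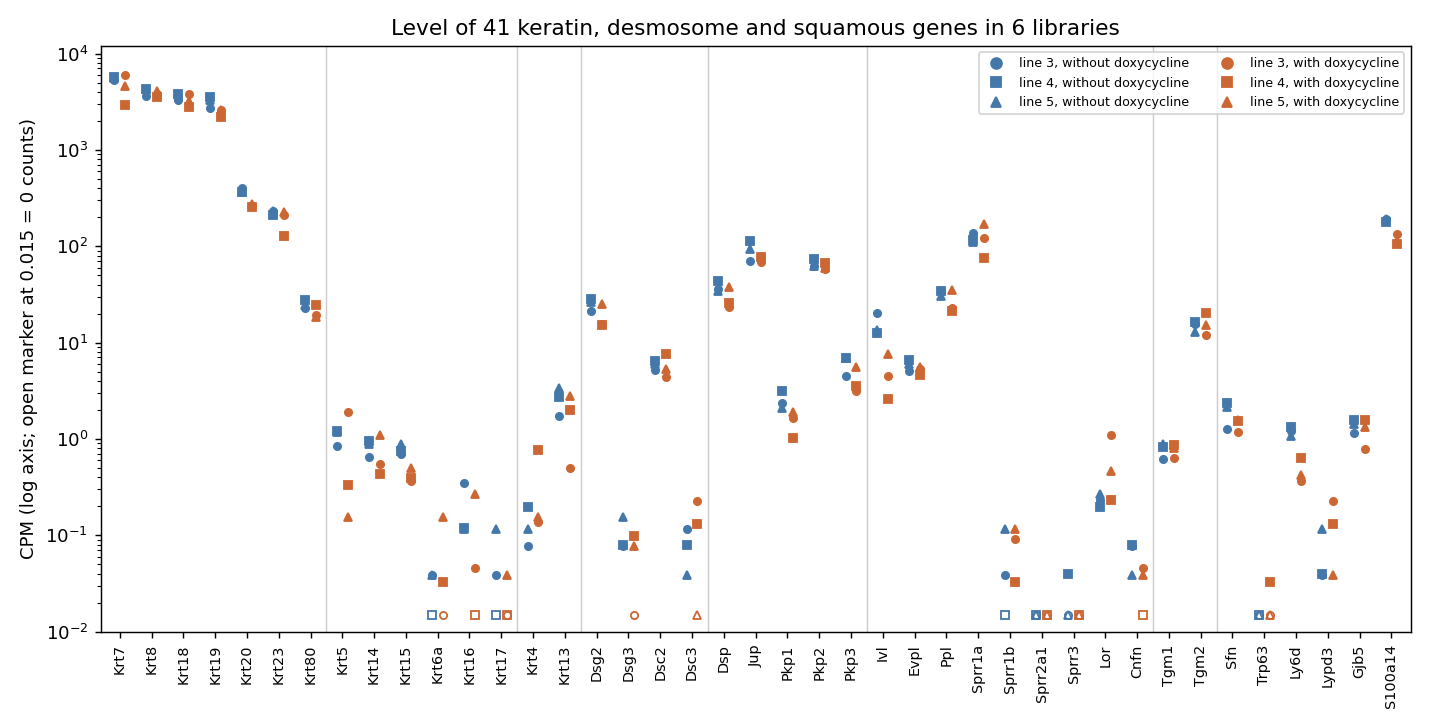
Level of the 41 matched genes in CPM on a log axis, 1 point per library, with line 3 as circles, line 4 as squares and line 5 as triangles, and open markers for 0 counts; vertical lines divide the subgroups. The genes span from Krt7 at 5513 CPM without doxycycline to Sprr2a1 at 0 counts, and for most of them the points of both conditions lie close together.

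**Figure D2:**
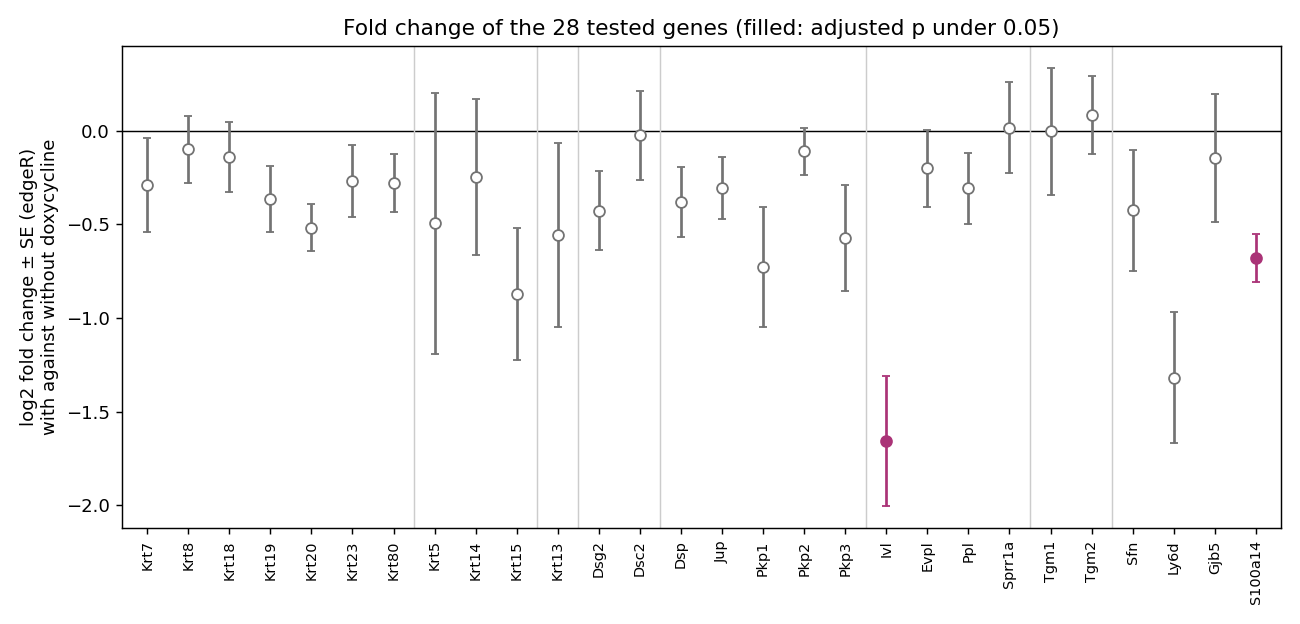
Log2 fold change with against without doxycycline and its standard error (edgeR) for the 28 tested genes, ordered by subgroup, with filled points for an adjusted p under 0.05. Ivl at -1.66 and S100a14 at -0.68 are the 2 filled points, and 26 of the 28 points lie below 0.

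The cells expressed the keratins of single-layered epithelia at high levels. Per kb of exon the untreated level was 2514 ± 201 CPM for Krt18, 2072 ± 198 for Krt8, 1720 ± 212 for Krt19 and 782 ± 23.8 for Krt7 (SD, n = 3). These levels divide by all merged exon bases, 7049 for Krt7, and by the longest transcript of 4094 bases Krt7 was at 1347 ± 40.96 CPM per kb and Krt19 at 2025 ± 249, in the same order. Krt8 and Krt19 are neighbours in that order whose means differ by less than the sum of their SDs. Far below them came Krt20 at 196 ± 12.3 CPM per kb and Krt23 at 144 ± 7.44 CPM per kb. Krt7, Krt8, Krt18 and Krt19 together held 96.3 ± 0.446% of the keratin CPM without doxycycline and 96.7 ± 0.284% with it. The 15 listed keratins made up 1.68 ± 0.148% of all counts in genes without and 1.46 ± 0.127% with doxycycline. None of the 7 keratins of this kind passed edgeR's test, although all 7 had a fold change below 0, with a median of -0.28 on the log2 scale.

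Krt20, a type I keratin of the gut and bladder lining, came closest. It stood at 404, 361 and 365 CPM in lines 3, 4 and 5 without doxycycline and at 261, 254 and 274 CPM with it. The groups did not overlap, and each treated library was below its own untreated one. The log2 fold change was -0.52 (SE 0.12) with an adjusted p of 0.065 in edgeR. Over 17 alternatives the adjusted p ranged from 0.0047 to 0.410 and was under 0.05 in 4: DESeq2 (0.0047), edgeR without a filter on low counts (0.033), with the offsets for length and GC content (0.032) and without the treated library of line 3 (0.018). With the replicate block it was 0.102 in edgeR.

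Krt19, the smallest type I keratin, which lacks most of the tail domain, was at 2752, 3510 and 3311 CPM without and 2594, 2211 and 2625 CPM with doxycycline. Its groups did not overlap either, by a narrow margin set by line 3, and the log2 fold change of -0.37 (SE 0.18) had an adjusted p of 0.347 in edgeR. Krt7, the type II keratin of ducts and glands, was even across the untreated lines, at 5334, 5667 and 5536 CPM, and uneven across the treated ones, at 5927, 2943 and 4653 CPM. It was higher with doxycycline in line 3 and lowest in line 4, and the log2 fold change was -0.29 (SE 0.25). In the fits without a library or a line the log2 fold change of Krt7 lay between -0.55 and -0.04. Krt8, at 4057 ± 387 CPM without and 3784 ± 255 CPM with doxycycline, and Krt18, at 3613 ± 289 and 3273 ± 511 CPM, had means that differed by less than the sum of their SDs. Their log2 fold changes were -0.10 (SE 0.18) and -0.14 (SE 0.19). Krt8 has a near copy, Krt8-ps, that matches it at 98.6% over 941 bases and held 3072 counts in the 6 libraries, so reads may be missing from Krt8 or shared. Krt23 differed by less than the sum of its SDs, at 226 ± 11.6 and 188 ± 52.1 CPM, with the treated library of line 4 low at 128 CPM (log2 fold change -0.27, SE 0.19). Krt80, a type II keratin found at cell margins, was at 25.1 ± 2.61 and 20.7 ± 3.11 CPM (log2 fold change -0.28, SE 0.16).

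The summed keratin level was 15641, 17848 and 17530 CPM without doxycycline and 16588, 11877 and 15086 CPM with it. It was higher with doxycycline in line 3 and lower in lines 4 and 5, and the groups did not separate in an exact two-sided permutation test (p = 0.2). Krt7 held 24.8% of the keratin CPM in the treated library of line 4 and 31.6% to 34.1% in the untreated libraries. Per kb, the type II sum over the type I sum was 0.631, 0.618 and 0.625 without doxycycline and 0.643, 0.666 and 0.689 with it. All 3 treated libraries lay above the untreated ones, and the exact two-sided permutation test gave p = 0.1, the smallest that 3 against 3 can give. The separation depends on the length used: by the longest transcript of each gene, chosen after the data were seen, the ratio was 0.718, 0.691 and 0.699 without and 0.742, 0.712 and 0.762 with doxycycline, the groups overlapped, and the exact permutation test gave p = 0.2. It was higher with doxycycline in each line by both lengths. For the partners Krt8 and Krt18 alone the ratio of CPM was 1.10, 1.13 and 1.13 without and 0.994, 1.27 and 1.25 with doxycycline, with line 3 moving opposite to the other lines.

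**Figure D3:**
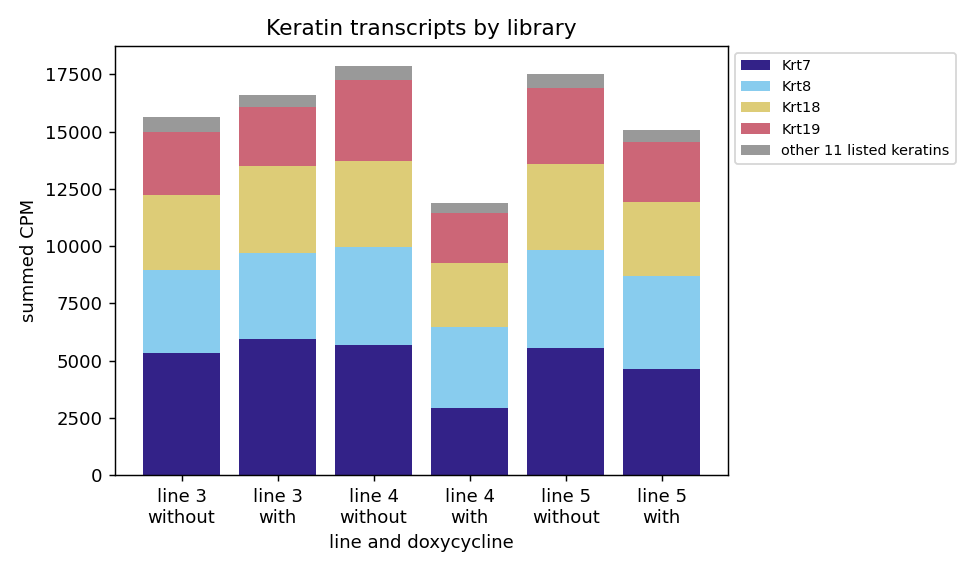
Summed level of the 15 listed keratins in CPM as stacked bars, 1 bar per library, with Krt7, Krt8, Krt18 and Krt19 in colour and the other 11 keratins in grey. The bar of line 3 reaches 15641 CPM without and 16588 CPM with doxycycline, those of lines 4 and 5 are lower with it, and the Krt7 segment of the treated line 4 library is the shortest of the 6 at 2943 CPM.

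The keratins of stratified epithelia were low, and those of activated layers lay near the limit of 3 counts. Krt5, the basal type II keratin, was at 0.85, 1.21 and 1.19 CPM without doxycycline and at 1.92, 0.33 and 0.15 CPM with it. The treated library of line 3 was the highest of the 6 and the other 2 treated libraries were the lowest. Over all 6 libraries the log2 fold change was -0.49 (SE 0.70) with an adjusted p of 0.786 in edgeR. Without the treated library of line 3 it was -2.11 (SE 0.46) with an adjusted p of 0.016, in a fit that called 10.4% of all genes, and without both libraries of line 3 it was -2.26 (SE 0.48) with an adjusted p of 0.046, in a fit that called 4.50%. Its type I partner Krt14 was at 0.83 ± 0.15 and 0.70 ± 0.36 CPM, with the treated library of line 5 the highest of the 6 at 1.11 CPM. Krt15, another basal type I keratin, was at 0.69, 0.74 and 0.88 CPM without and 0.37, 0.40 and 0.50 CPM with doxycycline. Its groups did not overlap, and the log2 fold change of -0.87 (SE 0.35) had an adjusted p of 0.256 in edgeR. The keratins of activated epithelium were close to absent, with 7 counts in all 6 libraries for Krt6a, 23 for Krt16 and 5 for Krt17. Krt6a has a near copy in Krt6b (97.1% over 1189 bases), which held 1 count, and reads that aligned to both would be counted for neither.

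Krt13 and Krt4 form the filament pair of the differentiated layers of oral and esophageal mucosa. Krt13 was at 1.73, 2.74 and 3.38 CPM without and 0.50, 1.98 and 2.79 CPM with doxycycline, lower in each line, with overlapping groups and a log2 fold change of -0.55 (SE 0.49). Krt4 was too low for the test, at 10 counts without and 30 with doxycycline. The treated library of line 4 alone stood at 0.76 CPM, where the other 5 libraries were at 0.08 to 0.20 CPM.

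Desmosomes were represented by 1 cadherin pair and a broader plaque. Dsg2, the desmoglein of simple epithelia, was at 21.4, 28.2 and 26.0 CPM without doxycycline and 15.6, 15.2 and 25.4 CPM with it. Lines 3 and 4 were lower with doxycycline and line 5 was nearly level, with a log2 fold change of -0.43 (SE 0.21) and an adjusted p of 0.355 in edgeR. Its partner Dsc2 was at 5.88 ± 0.617 and 5.76 ± 1.59 CPM (log2 fold change -0.02, SE 0.24). The cadherins of stratified epithelia, Dsg3 and Dsc3, had 13 and 15 counts in all 6 libraries, too few to be tested.

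Of the plaque genes Dsp, whose product desmoplakin binds keratin, was at 35.9, 43.3 and 34.7 CPM without and 23.5, 26.0 and 37.9 CPM with doxycycline. As for Dsg2, lines 3 and 4 were lower with the drug while line 5 was not, and the log2 fold change of -0.38 (SE 0.19) had an adjusted p of 0.351 in edgeR. Jup, the gene of plakoglobin, which also serves adherens junctions, was at 92.5 ± 21.5 and 74.8 ± 4.78 CPM (log2 fold change -0.31, SE 0.17). Of the plakophilins, Pkp2 was the highest, at 66.4 ± 6.75 and 61.5 ± 4.25 CPM (log2 fold change -0.11, SE 0.13). Pkp3 was at 6.10 ± 1.42 and 4.09 ± 1.34 CPM (log2 fold change -0.57, SE 0.28). Pkp1, the plakophilin of stratified epithelia, was at 2.35, 3.13 and 2.07 CPM without and 1.65, 1.02 and 1.91 CPM with doxycycline. Its groups did not overlap, but the closest libraries were 2.07 and 1.91 CPM, and the log2 fold change was -0.73 (SE 0.32, adjusted p 0.298 in edgeR). None of the 7 tested desmosome genes passed edgeR's test, and all 7 had a fold change below 0.

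The envelope proteins gave the largest fold change of the list. Ivl (ENSMUSG00000049128), on mouse chromosome 3 at chr3:92570902-92573735 on the minus strand of GRCm38, encodes involucrin, an early protein of the envelope that is crosslinked to desmosomal proteins. It stood at 20.1, 12.6 and 13.4 CPM in lines 3, 4 and 5 without doxycycline and at 4.53, 2.57 and 7.57 CPM with it. Every treated library was below every untreated one, and lines 3, 4 and 5 kept 22.5%, 20.3% and 56.7% of their untreated level. The log2 fold change was -1.66 (SE 0.35) with an adjusted p of 0.037 in edgeR, while the exact permutation test of the 6 values gave p = 0.1, the smallest that 3 against 3 can give. The call was lost without the untreated library of line 3 (edgeR adjusted p 0.204), of line 4 (0.121) or of line 5 (0.074), without both libraries of line 3 (0.099) or of line 4 (0.161), with a filter at a mean of 1 CPM (0.057) and with offsets for transcript length and GC content (0.052), and the log2 fold change lay between -2.22 and -1.34 in the fits without a library or a line. Without the treated library of line 3 it was -1.61 with an adjusted p of 0.017 in edgeR.

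Sprr1a, a small proline-rich envelope protein also made by injured cells, lies within 100 kb of Ivl and was the only other gene in that window with enough counts to be tested, of 11 annotated. It did not show the pattern of Ivl, at 136, 117 and 111 CPM without doxycycline and 121, 75.6 and 172 CPM with it. It was lower in lines 3 and 4 and higher in line 5, and the log2 fold change was 0.02 (SE 0.24) with an adjusted p of 0.985 in edgeR. The difference in fold change between the 2 genes was not tested.

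The promoters of this pair are shown since they are neighbours with unlike values. Both were read from RefSeq's table (GRCm38.p6), which held 21 of the 41 matched genes. Each run gives the 250 bases before the start site, 5′ to 3′ on the gene's minus strand, at chr3:92573736-92573985 for Ivl and chr3:92485882-92486131 for Sprr1a. Capitals mark matches on either strand to TGANTCA, a loose form of the letters bound by AP-1 factors in which N is any base. They also mark CCACCC, the letters of Krüppel-like factors, which reads GGGTGG on the other strand.
Ivl: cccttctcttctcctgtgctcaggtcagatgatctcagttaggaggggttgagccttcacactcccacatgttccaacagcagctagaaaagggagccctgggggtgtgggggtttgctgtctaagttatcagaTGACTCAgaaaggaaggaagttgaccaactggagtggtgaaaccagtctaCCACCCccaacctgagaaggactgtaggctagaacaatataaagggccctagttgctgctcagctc
Sprr1a: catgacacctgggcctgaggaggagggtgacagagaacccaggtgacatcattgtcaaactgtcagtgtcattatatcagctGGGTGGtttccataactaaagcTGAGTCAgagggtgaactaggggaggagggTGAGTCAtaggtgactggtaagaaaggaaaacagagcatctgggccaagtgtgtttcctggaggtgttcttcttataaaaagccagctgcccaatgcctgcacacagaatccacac

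The Ivl run holds TGANTCA at position -116 and CCACCC at position -66, counted from the start site to the first base of the match. The Sprr1a run holds TGANTCA at positions -146 and -116 and the other strand of CCACCC at position -168. Both runs also hold TATAAA, at position -29 in Ivl and -43 in Sprr1a. Counted per gene, with a match in any promoter of the gene, TGANTCA was found for 5 of the 21 genes (Ivl, Krt13, Lor, Sprr1a and Sprr1b) and for 7.82% of all 27025 genes in the table. CCACCC was found for 10 of the 21 and 30.6% of all genes, and TATAAA for 7 and 14.3%. The letters of AP-2 factors, GCCNNNGGC, were found for 5 of the 21 and 15.4%, and those of grainyhead-like factors, AACCGGTT, for 0 and 0.137%. Both strands were searched. These are matches of letters in a window, and no binding was measured.

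The remaining envelope genes had no call. Evpl and Ppl encode envoplakin and periplakin, plakins that link the envelope to desmosomes and keratin. Evpl was at 5.92 ± 0.756 and 5.15 ± 0.526 CPM (log2 fold change -0.20, SE 0.21). Ppl was at 34.0, 34.4 and 30.4 CPM without and 23.0, 21.3 and 35.5 CPM with doxycycline, again lower in lines 3 and 4 and not in line 5 (log2 fold change -0.31, SE 0.19). Lor, the gene of loricrin, the main protein of the mature envelope in skin, had 18 counts without and 43 with doxycycline. Its treated library of line 3 stood at 1.10 CPM and the other 5 libraries at 0.20 to 0.46 CPM, and it was too low for the test. Sprr1b had 10 counts in the 6 libraries, Cnfn (cornifelin) 7 and Sprr3 1. Sprr2a1 had 0 counts, but it has a pair of copies, Sprr2a2 and Sprr2a3, that match it at 99.9% and 98.9%, and the files keep reads that align to several places apart from the genes, so its 0 is no measure of expression. Of the crosslinking enzymes, Tgm1, the transglutaminase of keratinocyte membranes, was at 0.77 ± 0.14 and 0.77 ± 0.11 CPM. Tgm2, the tissue transglutaminase, had a log2 fold change of 0.08 (SE 0.21), with 21.8% of its exon bases shared with genes on the other strand.

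S100a14 (ENSMUSG00000042306, chr3:90526856-90528837, plus strand) was the second call. It stood at 190, 180 and 193 CPM without doxycycline and at 133, 106 and 113 CPM with it. The groups were well apart, and 69.6%, 59.2% and 58.6% of the untreated level was left in lines 3, 4 and 5. The log2 fold change was -0.68 (SE 0.13) with an adjusted p of 0.023 in edgeR, and the exact permutation test gave p = 0.1, again the smallest possible. The call was lost without the untreated library of line 3 (edgeR adjusted p 0.128), of line 4 (0.120) or of line 5 (0.134), without the treated library of line 5 (0.070) and without both libraries of line 4 (0.229) or of line 5 (0.283), and over these fits the log2 values lay from -0.77 to -0.61. Without the treated library of line 3 it was -0.77 with an adjusted p of 0.0022 in edgeR. S100a14 lies in a cluster of S100 genes, and of the 11 other genes tested within 100 kb none was called.

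**Figure D4:**
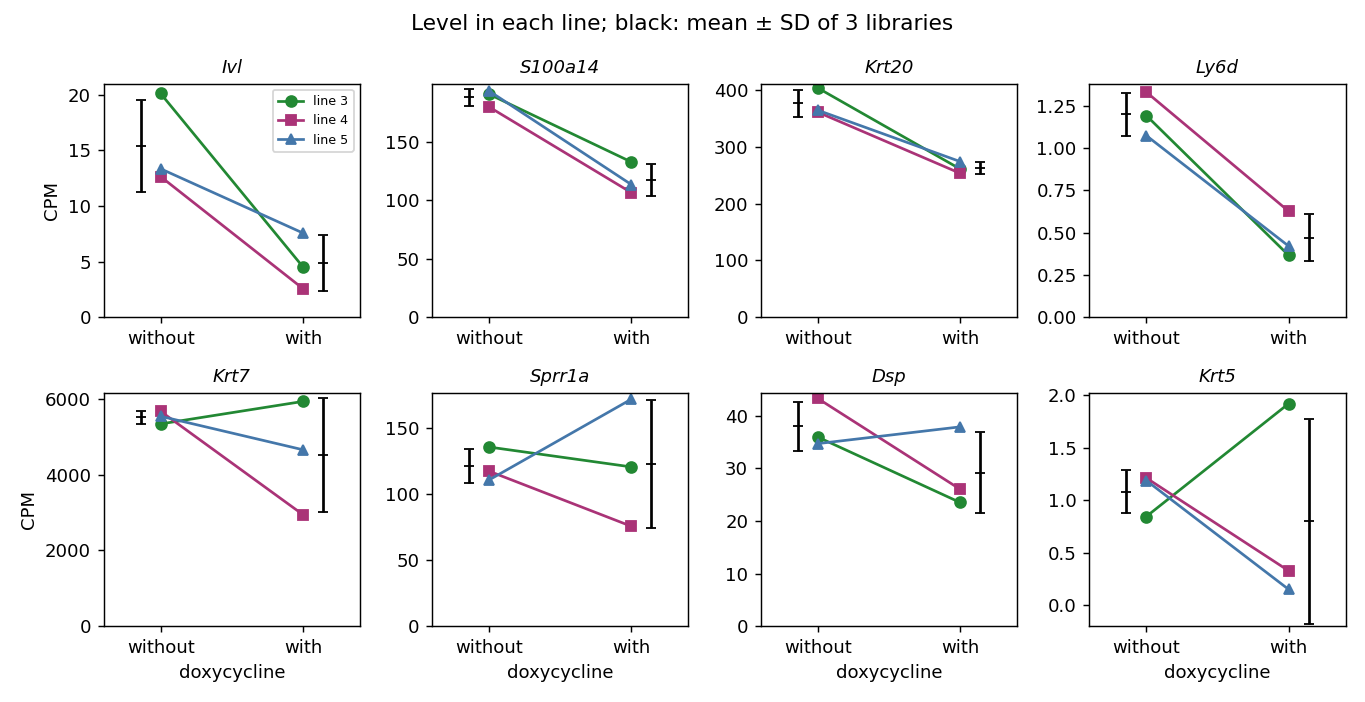
Level of 8 genes in CPM in each line without and with doxycycline, with the mean and SD of 3 libraries in black. In Ivl, S100a14, Krt20 and Ly6d every line is lower with doxycycline and the groups do not overlap, while in Krt7, Sprr1a, Dsp and Krt5 1 line goes against the others.

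Ly6d, a surface protein of squamous and other progenitor cells, was at 1.19, 1.33 and 1.07 CPM without and 0.37, 0.63 and 0.42 CPM with doxycycline. Each line was lower and the groups did not overlap, and the log2 fold change of -1.32 (SE 0.35) had an adjusted p of 0.090 in edgeR. B lymphocytes also carry Ly6d. Of their markers Ighm was lower in all 3 treated libraries, while the 7 others summed to 1.08, 0.587 and 0.921 CPM without and 0.503, 0.561 and 1.11 CPM with doxycycline, and the part of these cells in the Ly6d values was not tested. Sfn, the gene of 14-3-3 sigma, was at 1.92 ± 0.57 and 1.42 ± 0.21 CPM (log2 fold change -0.43, SE 0.32), and Gjb5, a connexin, at 1.38 ± 0.21 and 1.23 ± 0.41 CPM (-0.15, SE 0.34). Trp63, the gene of p63, the master regulator of stratified epithelia, had 1 count, in the treated library of line 4, and Lypd3 had 15 counts in the 6 libraries. Of the listed genes of squamous and stratified cells, Trp63 at 1 count and Krt6a at 7 were close to absent. Krt5 and Krt14 stood near 1 CPM without doxycycline. Lor, Tgm1, Dsg3, Dsc3 and Lypd3 had means of 0.23, 0.77, 0.10, 0.08 and 0.06 CPM without it. Ivl, Sprr1a and S100a14 of the same list had means of 15.4, 121 and 188 CPM.

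The 3 lines were alike in the direction of the list and unlike in its size. The median log2 ratio of CPM + 0.5 within a line was -0.22 in line 3, -0.59 in line 4 and -0.19 in line 5, and 22, 24 and 23 of the 28 tested genes lay below 0. Over all 14531 tested genes the medians were 0.0003, -0.0073 and -0.0038, and 7258, 7369 and 7437 genes lay below 0. The least Npm1 was left in line 3, and the lowest median was that of line 4. With 1 library per line and condition, a relation between the Npm1 left and the median was not tested. Of the 28 genes 15 were lower with doxycycline in every line and none was higher in every line. The share of all genes lower in every line was not computed. In Krt5, Krt7, Krt8, Krt18 and Evpl line 3 was the one line above 0, and in Krt14, Dsp, Ppl and Sprr1a it was line 5. The F test of the line terms in edgeR called none of the 28 genes and none of all 14531 (4.59% of these had an unadjusted p under 0.05, as did 1 of the 28). DESeq2 called 11 genes (0.0407% of 27007), none of them of the list.

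**Figure D5:**
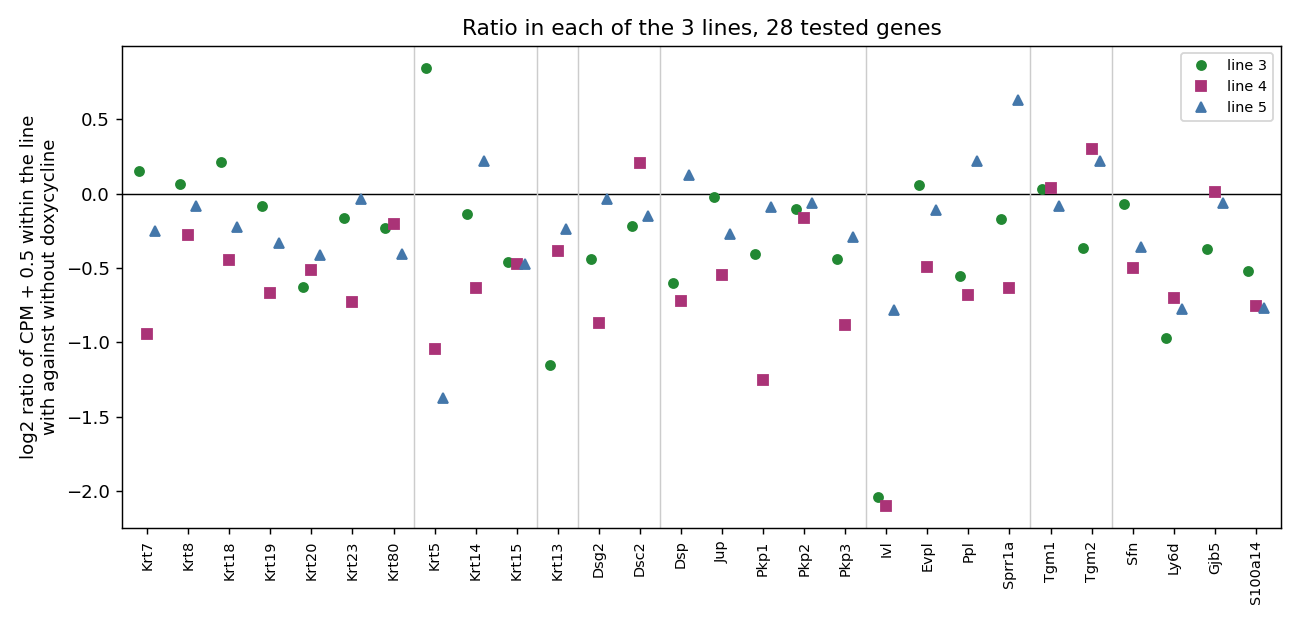
Log2 ratio of CPM + 0.5 with against without doxycycline within each line for the 28 tested genes, ordered by subgroup. Ivl and S100a14 are below 0 in all 3 lines, the squares of line 4 are often the lowest, and Krt5 and Sprr1a have points on both sides of 0.

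Other genes of the same structures were counted from longer lists. Of 39 other keratin genes 10 had 0 counts and 7 could be tested, and edgeR called none, with a median log2 fold change of -0.04. Krt10, a type I keratin of the upper epidermis, measured 7.19 ± 0.489 CPM in untreated and 10.4 ± 3.90 CPM in treated libraries (log2 fold change 0.53, SE 0.25), and Krt78, a type II keratin, was near the floor at 0.37 ± 0.13 and 0.25 ± 0.18 CPM. Of 8 other desmosome genes 3 could be tested and none was called. Perp, a membrane protein that desmosomes need, was at 321, 314 and 323 CPM without and 318, 255 and 182 CPM with doxycycline, lower in each line by unequal amounts (log2 fold change -0.35, SE 0.19, adjusted p 0.397 in edgeR). Cdsn, the gene of corneodesmosin, was at 20.03 ± 0.810 and 13.99 ± 2.95 CPM. Of 24 other envelope and late differentiation genes 8 had 0 counts and 6 could be tested, and none was called. Klk8, a skin protease, was at 8.04, 10.1 and 8.90 CPM without and 6.59, 1.19 and 3.02 CPM with doxycycline (log2 fold change -1.35, SE 0.46, adjusted p 0.174 in edgeR), and Anxa1, the gene of annexin A1, was at 2284 ± 260 and 1918 ± 341 CPM.

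Of 20 other regulators of epithelial genes 13 could be tested and 1 was called. The fold change lay below 0 in 8 of the 13 and above 0 in 5, from -0.94 to 0.89 on the log2 scale. Klf4, a Krüppel-like factor of differentiating epithelia, stood at 60.4, 63.4 and 56.0 CPM without and 43.5, 26.4 and 23.9 CPM with doxycycline. Its groups did not overlap, and the log2 fold change was -0.94 (SE 0.21) with an adjusted p of 0.046 in edgeR. Of 10 tested epithelial identity markers 1 fell, Cldn4, a tight junction claudin, from 29.7 ± 4.65 to 12.7 ± 4.95 CPM (log2 fold change -1.23, SE 0.25, adjusted p 0.032 in edgeR). The fold change lay below 0 in 7 of the 10 and above 0 in 3. Epcam was at 34.3 ± 16.2 CPM with doxycycline and was not called. With the replicate block in edgeR the adjusted p was 0.036 for Klf4 and 0.040 for Cldn4. How these calls fare in the other alternatives is not given here. None of 7 tested genes for other filaments and filament linkers was called. Vim, the gene of vimentin, the filament protein of mesenchymal and many cultured cells, was at 1929 ± 390 and 1230 ± 132 CPM (log2 fold change -0.65, SE 0.19, adjusted p 0.123 in edgeR), below 0 like most of the tested keratins. Nes, the gene of nestin, was at 140 ± 15.1 and 93.0 ± 12.0 CPM (log2 fold change -0.59, SE 0.14, adjusted p 0.063 in edgeR).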

How the data were processed

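RNA of 6 cultures was measured, 1 per line and condition, grouped by the labels. The authors deposited 1 raw count per gene and library, with no normalization. The submitters' processing notes list the build mm10 and, with no roles, HTSeq, STAR, CASAVA, Picard, bedtools, DESeq2 and R 3.3.0. The annotation release and the strand setting were not found in these notes. Reads that aligned to more than 1 place have a row of their own and count for no gene, by the deposited files. Without the strand setting, it is not known whether reads of a gene and of another on the opposite strand of the same bases were told apart. The 5 rows that name no gene held 43.7% to 47.7% of reads and were left out.

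Symbols, exon lengths and coordinates came from GENCODE's annotation of the same build, with symbols for 48058 identifiers. Counts were tested over all genes with edgeR 4.0.16 under R 4.3.3 (TMM scaling after filterByExpr, quasi-likelihood F test, Benjamini-Hochberg adjustment over 14531 genes), and the biological coefficient of variation was 18.0%. CPM used TMM-scaled library sizes, SE is the size of the log2 fold change over the square root of F, and levels per kb divide by merged exon length. Ratios within a line add 0.5 to each CPM. DESeq2 1.42.0 and limma 3.58.1 were alternatives. No 2 libraries of a group agreed within sampling noise. The procedure was tested on simulated data.

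The numbers pair the samples, since both libraries of a number are of 1 stable line. In lines 3, 4 and 5 the pair's deviations from the group means had r = 0.0048, 0.067 and 0.028, beside -0.10 to 0.067 for libraries of unlike lines, so the pairing rests on the lines and not on this check. Members and lists were chosen with earlier results of these data known. Members called, or tested with a mean of at least 1 CPM in a group, were given a fold change. Krt15, below that level, was given one too, while Krt14 and Tgm1, also below it, were given values only under the alternatives. Of the other lists the called genes were named, or otherwise the 2 of smallest p.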

Additional observations from a re-analysis of the deposited data

How the results depend on the processing

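Ivl and S100a14 were both called with RLE scaling, limma-voom, the rows of immune markers left out (which removes no RNA of such cells from other genes) and the replicate block, which pairs the libraries of a line and called 2 members and 243 genes in all. It moved no call among the 28. A filter at a mean of 1 CPM called 1 member, S100a14, and 171 genes; no filter called 3 members and 1052 genes, and DESeq2 3 and 705. With offsets for length and GC content 2 were called, Krt20 and S100a14. At an adjusted p under 0.1 there were 4 members and 593 genes. The fits without a library or a line called 0 to 4 members and 62 to 1551 genes, and with 5 or 4 libraries the precision is lower by construction. The median log2 fold change stayed below 0 in every fit, between -0.42 and -0.20 in those without a library or line.

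Fold changes near 0 changed sign. Tgm1 was at 0.0027 with RLE scaling, 0.0066 with limma-voom and 0.16 with the offsets, Sprr1a at -0.057 with the replicate block and -0.057 with limma-voom, and Krt8 at 0.0090 and Evpl at 0.11 with the offsets. The cause was not tested. Without a library or line the log2 fold change ranged from -0.27 to 0.14 for Dsc2, -0.37 to 0.27 for Sprr1a, -0.15 to 0.11 for Tgm1, -0.14 to 0.28 for Tgm2, -0.37 to 0.091 for Gjb5, -0.76 to 0.13 for Krt14 and -2.26 to 0.077 for Krt5. Genes under about 1 CPM rest on few counts per library, and differences there were often not detectable at this depth.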
